A study of Mus musculus with 6 samples.

Results

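The 9 genes that encode the subunits of AMPA and kainate receptors were examined in mouse retina with a conditional knockout of Cyfip2 and in wild-type retina. They were chosen by gene symbol, as all members of both families and with earlier results of these data known: Gria1 to Gria4 for the AMPA receptor and Grik1 to Grik5 for the kainate receptor. All 9 were among the 24346 symbols of the deposited tables, and all 9 passed the filter of a mean of at least 1 FPKM (a read count corrected for transcript length and for the size of the library) that left 13215 genes for testing. The study compared retinas of a conditional knockout of Cyfip2 (CKO) with retinas labelled wild-type for Cyfip2 (WT), with 3 libraries each, to ask which transcripts differ when the gene is deficient. The labels give neither the Cre line behind the conditional allele nor the age or sex of the mice, and they do not say whether the libraries of a group came from separate animals, so that p-values measure only the spread between these libraries, which may be technical.

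AMPA and kainate receptors are tetrameric cation channels opened by glutamate. In the retina they carry the sign-conserving glutamate signal: from photoreceptors to horizontal cells and OFF bipolar cells, and from bipolar cells to amacrine and ganglion cells. ON bipolar cells instead answer glutamate through the metabotropic receptor mGluR6. In AMPA receptors the GluA2 subunit, the product of Gria2, makes the channel nearly impermeable to calcium once its transcript has been edited at the Q/R site. Among kainate receptor genes, Grik1, Grik2 and Grik3 encode subunits that can form channels alone, while Grik4 and Grik5 encode high-affinity subunits that need one of the former as a partner.

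The Q/R site is a glutamine codon in the pore loop at which the RNA-editing enzyme ADAR2 changes the middle adenosine in transcripts of Gria2, and less completely in those of Grik1 and Grik2. The coding strand around it is shown for all members because it is the stretch that sets Gria2 apart from the other AMPA genes in function while the genome encodes glutamine in each. Each line gives 60 bases of the GENCODE M21 coding sequence, 5′ to 3′, with the glutamine codon in capitals.
Gria1: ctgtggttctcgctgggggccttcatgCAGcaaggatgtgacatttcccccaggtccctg
Gria2: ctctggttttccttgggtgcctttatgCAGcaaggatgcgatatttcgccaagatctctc
Gria3: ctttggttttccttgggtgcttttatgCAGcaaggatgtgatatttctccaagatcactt
Gria4: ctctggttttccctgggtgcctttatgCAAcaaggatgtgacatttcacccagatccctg
Grik1: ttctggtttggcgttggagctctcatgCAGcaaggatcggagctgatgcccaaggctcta
Grik2: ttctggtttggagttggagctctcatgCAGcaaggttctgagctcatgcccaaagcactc
Grik3: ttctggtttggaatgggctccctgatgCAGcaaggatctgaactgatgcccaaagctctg
Grik4: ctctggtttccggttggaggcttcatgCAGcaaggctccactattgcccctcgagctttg
Grik5: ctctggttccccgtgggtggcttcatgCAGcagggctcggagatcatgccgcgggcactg
The codon was CAG in 8 genes and CAA in Gria4. Seen from the start codon it is codon 607 in Gria2, where it lies at chr3:80706911-80706913 on the minus strand of GRCm38, in exon 11 of the coding transcript used. Over the 60 bases the 4 AMPA genes shared 47 to 54 bases with each other and the 3 channel-forming kainate genes 49 to 53, while an AMPA gene and one of these kainate genes shared 36 to 40. A value per gene does not show whether the codon was edited, nor which of the alternative flip and flop exons was used, and reads from the most alike stretches of paralogs may have been assigned to either gene.

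The libraries were close to each other in scale: the summed FPKM was 402832 to 436299 per library, the median log2 deviation of all tested genes from their mean lay between -0.0007 and 0.0026, and Pearson's r between libraries was at least 0.968. The targeted gene differed as labelled, with Cyfip2, a subunit of the actin-regulating WAVE complex, at 8.33 to 11.2 FPKM in CKO and 35.5 to 63.1 FPKM in WT (log2 fold change -2.29, limma adjusted p = 0.02389). WT 1 held the lowest of the WT values. Leaving out 1 library gave Cyfip2 fold changes of -2.56 to -2.15; the limma adjusted p was 0.001597 without WT 1 but 0.1093, 0.1117 and 0.1166 without CKO 1, CKO 2 or CKO 3 and 0.1973 and 0.0663 without WT 2 or WT 3. Of the rod photoreceptor markers, 7, among them the transducin gene Gnat1, summed to 7753 to 8959 FPKM per library. Markers of lens fibres, a neighbouring tissue, summed to 13.8 to 24.4 FPKM in CKO and 23.5 to 127.0 FPKM in WT. Of these 5 genes 2 passed the filter, Cryaa and Crygs, each with a log2 fold change of -1.44 (limma adjusted p = 0.6007 and 0.4182). The groups of Cryaa overlapped and those of Crygs did not, where 6.95% of all tested genes lay entirely lower in CKO. Markers of the pigment epithelium summed to 5.67 to 12.9 FPKM over all libraries. The part of these markers in the receptor values was not tested.

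Levels of the receptor subunits spanned a wide range, and their order was nearly the same in every library. FPKM is scaled to transcript length, which allows levels of different genes to be set side by side only roughly. The annotation is not stated, and reads of paralogs may have been assigned to either gene. The order given here is that of the deposited values. Gria2 was the highest, at 58.0 FPKM over the 6 libraries (mean), above 90.2% of tested genes, and its lowest library (55.3 FPKM) was above the highest library of the next gene, Gria4 (45.4 FPKM). Gria4 (mean 42.3 FPKM) and Grik5 (41.8 FPKM) overlapped in range, with Gria4 higher in 3 of 6 libraries. These 3 were the CKO libraries, and Grik5 was the higher in each WT library. Grik1 followed at 32.9 FPKM, below every library of Grik5. Gria3 (19.0 FPKM) and Gria1 (16.9 FPKM) overlapped in range, although Gria3 was the higher in 6 of 6 libraries. Grik2 (8.05 FPKM), Grik3 (4.78 FPKM) and Grik4 (2.29 FPKM) came last, each separated from its neighbours in all libraries. Among the kainate genes Grik5 and Grik1 had the highest values, which made up 44.9% to 48.2% and 34.4% to 39.2% of the summed kainate FPKM per library.

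**Figure D1:**
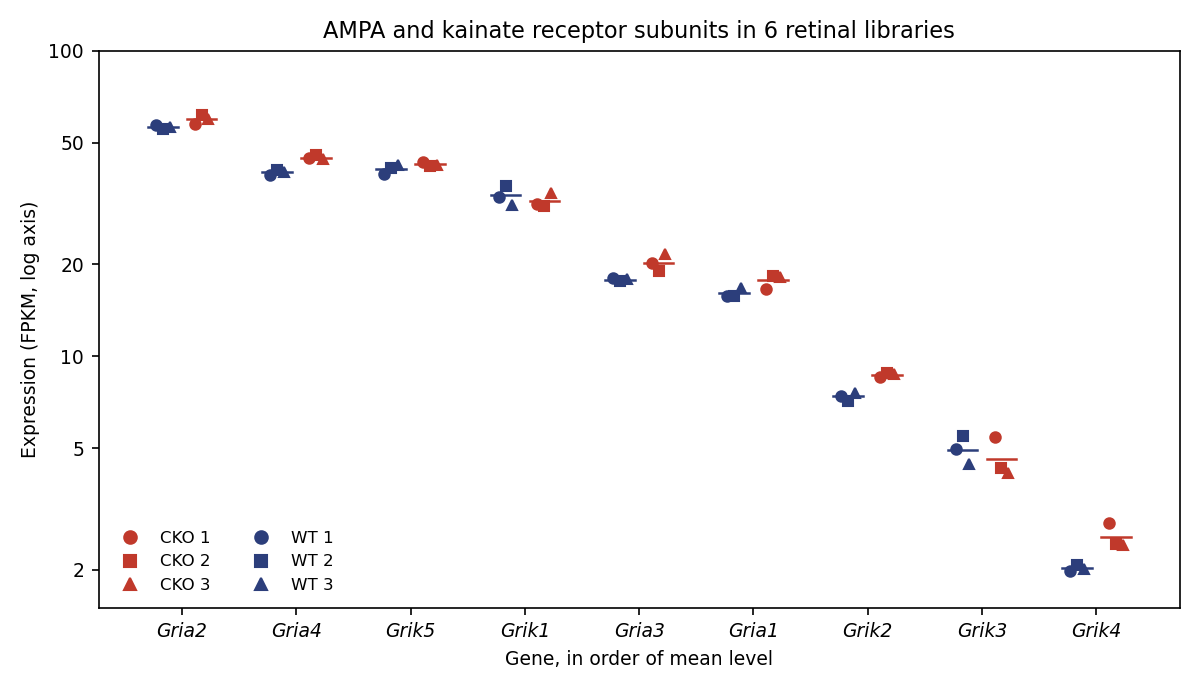
Expression of the 9 receptor subunit genes in each library (vertical log axis, FPKM), with genes ordered by mean level along the horizontal axis; points are libraries (WT in blue, CKO in red, the shape gives the replicate number) and bars are group means. Gria2 lies above all others at 55.3 to 61.5 FPKM and Grik4 below all others at 1.97 to 2.85 FPKM, and the red and blue points do not overlap for Gria2, Gria3, Gria4, Grik2 and Grik4.

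No subunit gene differed between CKO and WT past the threshold. Of the 13215 genes tested 3 did (0.0227%) by limma, and the count among the 9 subunits was 0; at an unadjusted p under 0.05 there were 3 subunits, Gria3, Gria4 and Grik2, all with fold changes above 0, where 3.52% of all tested genes had such a p and were higher in CKO and 4.36% had one and were lower. Fold changes were above 0 for 7 of 9 subunits, against 49.5% of all tested genes. The CKO values lay entirely above the WT values for 5 of 9 subunits (Gria2, Gria3, Gria4, Grik2 and Grik4), against 6.96% of all tested genes, and entirely below for 0 of 9, against 6.95%. Without WT 1, the WT library lowest in Cyfip2, the same 5 genes were counted, against 12.8% of tested genes. Leaving out a library cannot remove a gene from this count, so the recount is no check on it. The median log2 fold change was 0.13 over the 9 subunits and -0.0016 over all tested genes. In bulk tissue, a difference in the number of cells of a type and one in RNA per cell cannot be told apart.

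The AMPA receptor genes were all higher on average in CKO, by 5.94% to 13.5% in FPKM. Gria4, whose product GluA4 has fast kinetics, read 44.4, 45.4 and 44.1 FPKM in CKO 1 to 3 and 39.1, 40.7 and 40.2 FPKM in WT 1 to 3. The lowest CKO library was 3.38 FPKM above the highest WT library, the widest absolute gap among the subunits. Grik2 and Grik4 had gaps of 0.935 and 0.34 FPKM at much lower levels (means 8.05 and 2.29 FPKM), so the absolute gap does not rank the genes by relative separation. The group means of Gria4 were 44.6 ± 0.695 and 40.0 ± 0.82 FPKM (SD, n = 3 each). On the log2 scale Gria4 was higher in CKO by 0.15 (SE 0.04, 95% confidence interval from 0.05 to 0.25). Its limma adjusted p of 0.4598 went with the smallest unadjusted p among the subunits and the 210th smallest of all tested genes. Gria3, an X-linked gene, read 20.1, 19.0 and 21.6 FPKM in CKO 1 to 3 and 18.0, 17.6 and 17.9 FPKM in WT 1 to 3. All WT libraries lay close together and below every CKO library, with means of 20.2 ± 1.27 and 17.8 ± 0.222 FPKM (log2 fold change 0.17, SE 0.06, interval 0.03 to 0.31; limma adjusted p = 0.5723).

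Gria2 read 57.6, 61.5 and 59.8 FPKM in CKO 1 to 3 and 57.3, 55.3 and 56.3 FPKM in WT 1 to 3. CKO 1 and WT 1 were only 0.219 FPKM apart, so the separation of the groups was narrow. The means were 59.6 ± 2.001 and 56.3 ± 1.03 FPKM, with a log2 fold change of 0.08 (SE 0.04, interval -0.02 to 0.19; limma adjusted p = 0.7199). Gria1, whose product GluA1 is regulated by phosphorylation in synaptic plasticity, read 16.6, 18.3 and 18.2 FPKM in CKO and 15.7, 15.8 and 16.8 FPKM in WT. Here the groups overlapped through CKO 1, which lay below WT 3. The means of Gria1 were 17.7 ± 0.977 and 16.1 ± 0.581 FPKM, with a log2 fold change of 0.13 (SE 0.06, interval -0.02 to 0.28; limma adjusted p = 0.6761).

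The summed AMPA subunits came to 138.7, 144.3 and 143.7 FPKM in CKO 1 to 3 and 130.2, 129.3 and 131.1 FPKM in WT 1 to 3. The CKO sum was 1.09 times the WT sum and the groups did not overlap. Gria2 made up a slightly smaller share of this sum in CKO, at 41.5%, 42.6% and 41.6% against 44.0%, 42.7% and 42.9% in WT. This is a difference of -1.30 percentage points between means, with CKO 2 and WT 2 nearly touching. After quantile normalization the Gria2 shares of the groups overlapped. The shares of Gria1, Gria3 and Gria4 overlapped between the groups, with means of 12.4% in CKO and 12.3% in WT for Gria1, 14.2% and 13.7% for Gria3, and 31.4% and 30.7% for Gria4. These sums and shares were chosen after the single genes had been seen and are given as descriptions, with no test.

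The kainate receptor genes did not share a direction. Grik2, which encodes the channel-forming subunit GluK2, read 8.54, 8.80 and 8.77 FPKM in CKO 1 to 3 and 7.43, 7.15 and 7.60 FPKM in WT 1 to 3. Every CKO library was above every WT library, with means of 8.70 ± 0.145 and 7.39 ± 0.229 FPKM, a difference of 17.7%. Its log2 fold change was 0.21 (SE 0.07, interval 0.05 to 0.36; limma adjusted p = 0.5182). Grik4, the high-affinity subunit gene with the lowest level, read 2.85, 2.43 and 2.41 FPKM in CKO and 1.97, 2.07 and 2.02 FPKM in WT. Its groups did not overlap either, CKO 1 standing above the other libraries, and it had the largest ratio of means among the subunits (1.27; log2 fold change 0.24 on the FPKM + 1 scale, SE 0.10, interval -0.003 to 0.48; limma adjusted p = 0.6392). The added 1 understates the change of a gene at this level: with a pseudocount of 0.01 the log2 fold change of Grik4 was 0.34.

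Grik1, which encodes GluK1, the main kainate receptor subunit of OFF bipolar cells, read 31.5, 30.9 and 34.2 FPKM in CKO and 33.3, 36.2 and 31.4 FPKM in WT. The groups overlapped widely, with WT 2 the highest and CKO 2 the lowest library (log2 fold change -0.06, SE 0.07, interval -0.21 to 0.10; limma adjusted p = 0.8774). Without WT 2 the fold change was -0.0058. Grik3, the gene of the channel-forming subunit GluK3, was the most variable: CKO 1 at 5.44 FPKM and WT 2 at 5.46 FPKM were the highest libraries, and CKO 2 and CKO 3 at 4.29 and 4.13 FPKM the lowest. Its log2 fold change was -0.09 with an interval of -0.36 to 0.19 (limma adjusted p = 0.909), and the spread between libraries leaves the direction of Grik3 undetermined. Grik5, the abundant high-affinity subunit gene, read 43.3, 42.1 and 42.1 FPKM in CKO and 39.6, 41.4 and 42.2 FPKM in WT. WT 3 lay within the CKO range, and the interval of the log2 fold change of Grik5 was -0.06 to 0.15 (estimate 0.05, limma adjusted p = 0.8399). The summed kainate subunits overlapped between groups, at 88.6 to 91.7 FPKM in CKO and 87.3 to 92.2 FPKM in WT.

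**Figure D2:**
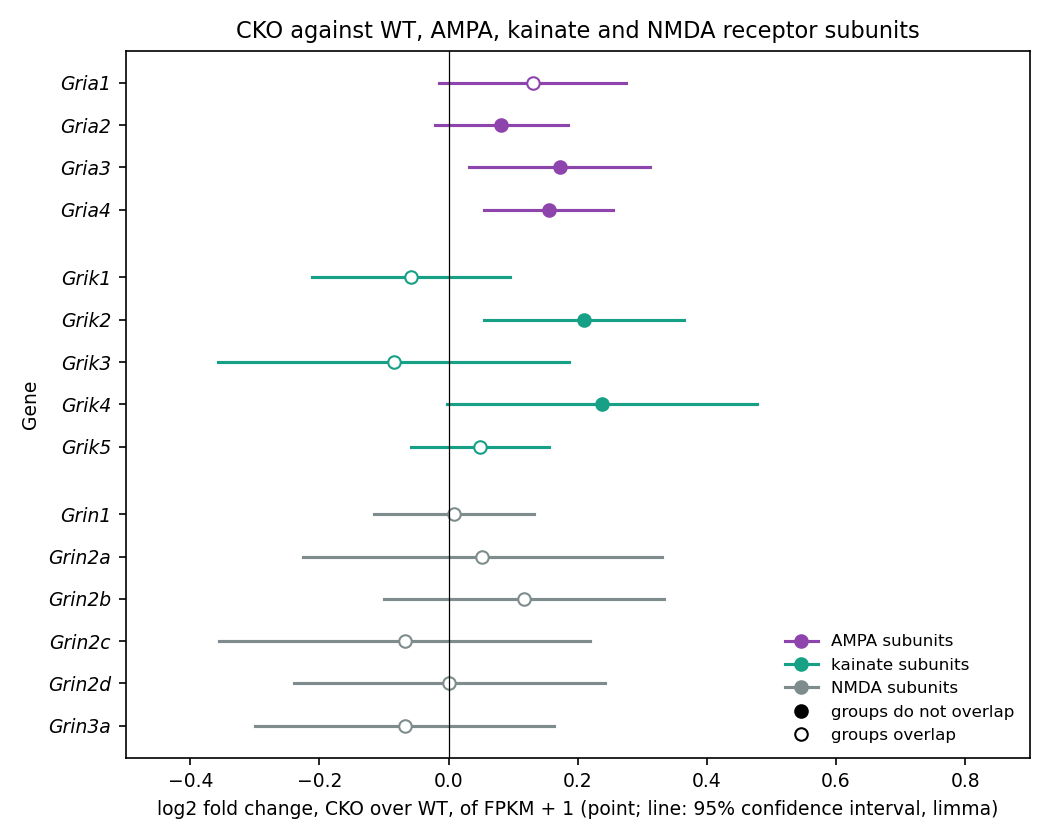
Log2 fold change of each tested AMPA, kainate and NMDA receptor gene between CKO and WT (horizontal axis, FPKM + 1 scale; points are estimates, lines 95% confidence intervals from limma), one gene per row, AMPA in purple, kainate in green, NMDA in grey; filled points mark genes whose groups do not overlap. The 4 AMPA genes lie at 0.08 to 0.17 and the kainate genes on both sides of 0, and each of the 6 NMDA genes has an interval that includes 0.

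NMDA receptor genes, which encode the slower, magnesium-blocked glutamate receptors, were read in the same way. Of 7 genes 6 passed the filter (Grin3b did not), 4 had fold changes above 0 and 2 below 0, and the median was 0.0049. The groups of all 6 overlapped, where 6.96% of all tested genes lay entirely higher in CKO and 6.95% entirely lower. Grin3b, below the filter and not tested, read 0.590 to 0.645 FPKM in CKO and 0.674 to 1.015 FPKM in WT, without overlap. Grin1, the obligatory NMDA subunit, had group means of 30.1 ± 0.503 FPKM (CKO) and 29.98 ± 1.597 FPKM (WT). The summed NMDA subunits were 43.1 to 44.7 FPKM in CKO and 41.5 to 46.0 FPKM in WT. The summed AMPA FPKM was 3.22, 3.23 and 3.25 times the summed NMDA FPKM in CKO 1 to 3 and 3.14, 2.81 and 2.97 times in WT 1 to 3. The ratio did not overlap between the groups, but it is a description and the difference between the receptor families was not tested.

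**Figure D3:**
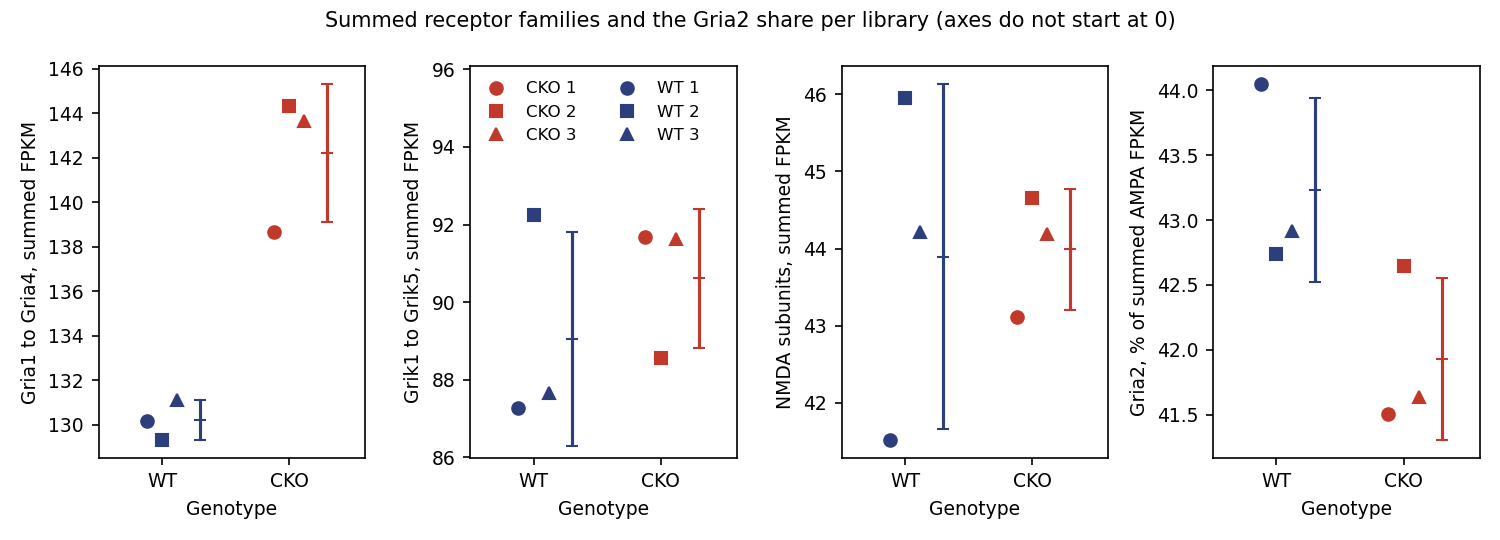
Summed FPKM of the AMPA, kainate and NMDA receptor genes and the share of Gria2 in the AMPA sum (vertical axes, which do not start at 0) in WT and CKO (horizontal axis); points are libraries, and the bars beside them are the mean ± SD of 3. The AMPA sums are 129.3 to 131.1 FPKM in WT and 138.7 to 144.3 FPKM in CKO, while the kainate and NMDA sums of the groups overlap.

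Auxiliary subunits set the trafficking and gating of AMPA and kainate receptors; they include the TARPs (the Cacng genes), the cornichons (Cnih2 and Cnih3), the Shisa proteins and, for kainate receptors, Neto1 and Neto2. All 19 listed genes were tested, and limma called none of them. Their fold changes split into 10 above 0 and 9 below 0 (median 0.0005). An unadjusted limma p under 0.05 was found for 2 genes, each higher in CKO, where 3.52% of all tested genes had such a p and were higher. The groups did not overlap for 4 genes, all higher in CKO, against 6.96% of all tested genes. Cacng3, the gene of the TARP γ-3, read 33.2, 34.7 and 36.1 FPKM in CKO 1 to 3 and 30.8, 32.9 and 29.8 FPKM in WT 1 to 3 (log2 fold change 0.15, SE 0.06, limma adjusted p = 0.5915). Shisa7 was at 6.74 ± 0.477 against 5.66 ± 0.453 FPKM (0.22, limma adjusted p = 0.6042), Cacng4 at 50.5 ± 1.12 against 47.5 ± 1.48 FPKM (0.08, limma adjusted p = 0.7163) and Cnih3 at 3.06 ± 0.106 against 2.71 ± 0.0439 FPKM (0.13, limma adjusted p = 0.7754). Cacng7, the most abundant TARP gene here, was at 95.2 ± 4.68 against 95.7 ± 4.88 FPKM. Neto1 and Neto2 had fold changes of -0.09 and -0.14, and their groups overlapped.

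Genes for the trafficking and clustering of AMPA receptors, among them the scaffold genes Grip1, Pick1 and Dlg4 and the neuronal pentraxins, gave 13 tested of 14 (Arc, at 0.354 to 0.508 FPKM, did not pass the filter). Of the 13, 10 were above 0 and 3 below 0 (median 0.03), and none was called by limma. The groups of all 13 overlapped, where 6.96% of all tested genes lay entirely higher in CKO and 6.95% entirely lower. An unadjusted limma p under 0.05 was found for 1 gene, lower in CKO, where 4.36% of all tested genes had such a p and were lower. That gene was Nptxr, the neuronal pentraxin receptor, at 3.29, 1.17 and 2.50 FPKM in CKO 1 to 3 and 7.55, 3.27 and 3.59 FPKM in WT 1 to 3, with CKO 1 just above WT 2 and WT 1 standing apart (log2 fold change -0.79, SE 0.32, limma adjusted p = 0.6038). The 3 genes of the adenosine deaminase family were above 0 with overlapping groups. Adarb1, which encodes the Q/R-site editor ADAR2, was at 46.4, 45.6 and 47.1 FPKM in CKO and 42.6, 46.4 and 40.1 FPKM in WT (log2 fold change 0.11, SE 0.06, interval -0.03 to 0.25; limma adjusted p = 0.7199).

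Markers of retinal cell types differed in the direction of their values, and their part in the receptor values was not tested. None of the marker genes below was called by limma. Amacrine cell markers were mostly higher in CKO: 10 of 12 had fold changes above 0, the groups did not overlap for 9 higher and 1 lower (6.96% and 6.95% of all tested genes did so in these directions), the median was 0.20, and the summed level was 753.1 to 783.0 FPKM in CKO and 658.9 to 686.8 FPKM in WT. The 2 amacrine markers below 0 were Chat (log2 fold change -0.05, groups overlapping) and Slc18a3 (-0.42, lower without overlap). Ganglion cell markers were mostly lower: 11 of 12 were below 0, 8 lower without overlap (background 6.95%), with a median of -0.18 and sums of 739.1 to 762.4 FPKM in CKO and 809.7 to 876.9 FPKM in WT. Horizontal cell markers were below 0 in 7 of 8 genes, 6 lower without overlap (background 6.95%), with a median of -0.23 and sums of 232.6 to 250.1 against 269.0 to 280.1 FPKM. OFF bipolar markers had 4 genes above 0 and 5 below 0, all overlapping (median -0.04; sums of 85.7 to 89.5 against 85.6 to 95.1 FPKM). Those of rod and ON bipolar cells had 7 of 8 above 0 (median 0.08; sums of 371.5 to 385.1 against 364.9 to 386.0 FPKM), and the groups did not overlap for 1 gene in each direction (background 6.96% higher and 6.95% lower). Muller glia markers had 5 of 7 above 0 (median 0.02), all overlapping. Cone markers were below 0 in 7 of 8 genes, 3 lower without overlap (background 6.95%), with a median of -0.18 and sums of 532.5 to 586.2 FPKM in CKO and 596.4 to 649.3 FPKM in WT. Rod markers were below 0 in 6 of 7 genes, 1 lower without overlap (background 6.95%), with a median of -0.08. Microglia markers were below 0 in 4 of 6 genes, all overlapping (median -0.18; sums of 18.97 to 21.8 against 20.6 to 27.99 FPKM), and those of vascular endothelium in 4 of 5, 2 lower without overlap (background 6.95%; median -0.14; sums of 104.5 to 109.3 against 103.1 to 111.96 FPKM). Of the oligodendrocyte markers 2 of 5 passed the filter, and all 5 summed to 9.88 to 11.6 FPKM in CKO and 11.1 to 11.98 FPKM in WT.

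**Figure D4:**
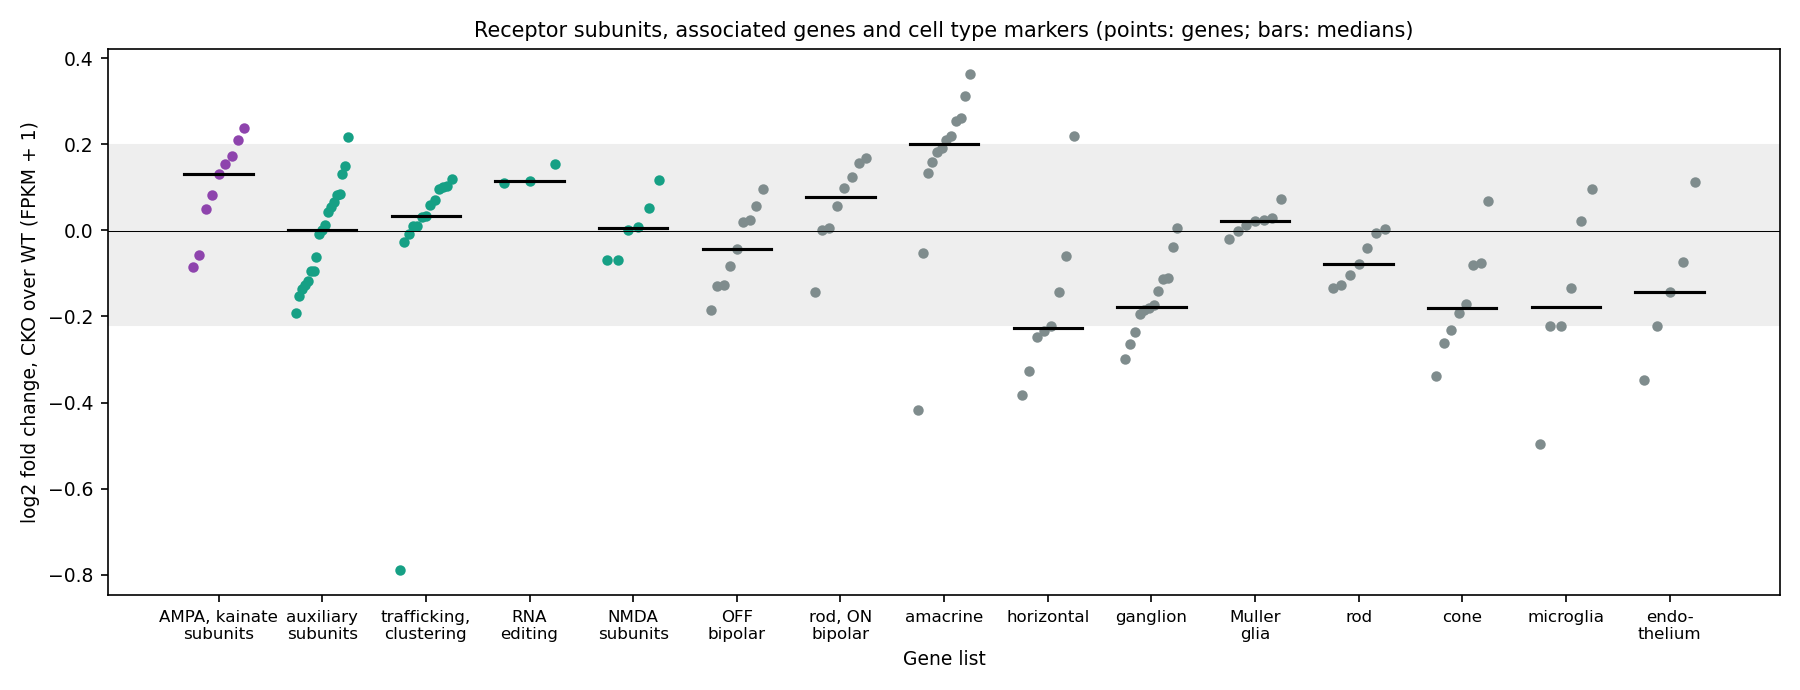
Log2 fold change between CKO and WT on the FPKM + 1 scale (vertical axis) of every tested gene in the receptor subunit list (purple), the lists of associated genes (green) and 10 lists of cell type markers (grey), with the list along the horizontal axis; points are genes, short bars list medians, the thin line the median of all tested genes and the shaded band their 5th to 95th percentile, -0.22 to 0.20. The receptor subunits have a median of 0.13, the auxiliary subunits lie on both sides of 0, and the medians of the amacrine (0.20), ganglion cell (-0.18), horizontal cell (-0.23), cone (-0.18), microglia (-0.18) and endothelium markers (-0.14) lie farther from 0 than that of the receptor subunits. Lens, pigment epithelium and oligodendrocyte markers are not shown.

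How the subunit genes varied together over the 6 libraries is given as a description. Pearson's r of log2(FPKM + 1) was above 0 for 6 of 6 pairs of AMPA genes (0.61 to 0.88) and for 5 of 10 pairs of kainate genes (-0.51 to 0.81). All pairs share the same libraries and the genotype difference; after the group means were removed, r was above 0 for 3 of 6 AMPA pairs, from -0.69 for Gria3 with Gria4 to 0.67 for Gria1 with Gria2. Grik2 with Gria4 had the highest r of all pairs (0.92), but -0.19 within groups, and Gria1 and Grik3 ran opposite to each other (-0.81, and -0.95 within groups).

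The genes most like each subunit over the 6 libraries were picked from 12221 candidates, and with 6 points the best of so many reach a high r in any case. For Gria4 they were Sorcs1, a sorting receptor gene (r = 0.9991), and Gpr157 (0.9976). For Gria3 they were Fibcd1 (0.988) and Kdm5d (0.9825), for Gria2 Rbsn (0.9924) and Pde4b (0.9841), and for Gria1 Ppp6r2 (0.9951) and Nol6 (0.9912). Those of Grik2 were Pkd2l2 (0.9989) and Adamts4 (0.9959), of Grik4 Manba (0.9926) and Crhr2 (0.9818), and of Grik5 Sirt1 (0.9874) and Tsga10 (0.9856). Grik1 was most like Mark4 (0.9961) and Igsf1 (0.9837), and Grik3 most like Med11 (0.9889) and Zfp85 (0.9858). The values are given as a description. The mean of Sorcs1 was 22.6 FPKM in the CKO and 19.99 FPKM in the WT libraries.

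The genes lie on 8 chromosomes of GRCm38 and are long. Gria4 spans 378339 bp (chr9:4417896-4796234, minus strand) and Grik4 lies on the same chromosome (chr9:42518135-42944493, minus strand). Gria1 is at chr11:57011387-57330244 on the plus strand, Gria2 at chr3:80681450-80802835 on the minus strand and Gria3 at chrX:41400854-41678601 on the plus strand. Grik2 is the longest, with 693934 bp at chr10:49094833-49788766 on the minus strand, and Grik5 the shortest, with 62498 bp at chr7:25009849-25072346 on the minus strand. Grik1 is at chr16:87895900-88290265 on the minus strand and Grik3 at chr4:125490700-125714173 on the plus strand. Cyfip2 is on chromosome 11, as is Gria1.

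Promoters, taken as 250 bases before to 50 after the start, were found for 6 of 9 members in the RefSeq table (GRCm38.p6): Gria2, Gria4 and Grik2 to Grik5. They were searched on both strands for the GC box GGGCGG, the cAMP response element TGACGTCA, the TATA box TATAAA and the left part of the REST element, TTCAGCACC; no match overlapped another motif. Only the GC box was found, in Grik3 (7 matches), Grik4 (2) and Grik5 (2); 35.7% of the 32851 promoters of this length hold it. The other motifs are held by 1.79%, 13.6% and 0.371% of promoters in the order given. Of the genes whose CKO and WT values did not overlap, Gria2, Gria4 and Grik2 had no match and Grik4 had 2. Below are the promoters of Gria4, the subunit gene of smallest p, and of Grik3, the richest in GC boxes, with GC boxes in capitals; they lie at chr9:4796185-4796484 on the minus strand and chr4:125490446-125490745 on the plus strand.
Gria4: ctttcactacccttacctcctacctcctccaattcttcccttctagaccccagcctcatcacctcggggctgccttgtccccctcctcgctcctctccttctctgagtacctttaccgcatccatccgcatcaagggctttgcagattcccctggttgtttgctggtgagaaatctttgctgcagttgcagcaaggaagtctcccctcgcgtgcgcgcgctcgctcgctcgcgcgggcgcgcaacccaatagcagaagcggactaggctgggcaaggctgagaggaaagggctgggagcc
Grik3: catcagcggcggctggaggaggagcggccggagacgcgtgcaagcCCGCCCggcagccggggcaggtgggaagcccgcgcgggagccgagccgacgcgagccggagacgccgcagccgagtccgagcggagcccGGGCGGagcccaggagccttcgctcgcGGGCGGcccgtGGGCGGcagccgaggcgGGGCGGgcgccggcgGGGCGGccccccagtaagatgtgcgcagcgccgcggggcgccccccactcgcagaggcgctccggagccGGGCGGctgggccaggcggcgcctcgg
A match is a description of these letters and does not show that a factor binds.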

How the data were processed

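Retinal mRNA was measured in 3 Cyfip2 CKO and 3 WT libraries; per the labels' protocols, TRIzol extraction was followed by a stranded TruSeq mRNA kit. The authors deposited 1 table per library with 1 FPKM value (fragments per kilobase of transcript, scaled to mapped fragments) for each of 24346 gene symbols. The unit was taken from Cufflinks and from the values, which are fractional. Per the submitters' processing notes the tools were TopHat2 2.0.13, Bowtie2 2.3.5.1, SAMtools 1.11 and Cufflinks 2.2.1 with build mm10; for the annotation, strand use and scaling nothing is stated in the labels or headers. Dates had replaced 27 symbols in WT 3, which were restored from the same rows of the other tables. FPKM keeps no counts, so absolute depth is unknown and precision came from the spread between libraries.

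Values were analysed as log2(FPKM + 1) with limma 3.58.1 in R 4.3.3 (variance trend, two-sided, no covariate) over the 13215 genes that averaged 1 FPKM or more, with Benjamini-Hochberg adjustment at 0.05. The fit was tested on simulated data. Group was taken from the titles. Deviations from the group means had a Pearson's r of 0.07, 0.006 and 0.10 between same-numbered CKO and WT libraries, and of -0.119 to 0.0363 between differently numbered ones. The labels name no pairs and all these values were small, so the numbers were not treated as pairs in the main fit. With a replicate block 1271 genes had an unadjusted limma p under 0.05, against 1041 without it. Some genes of the lists are not reported here. Members and gene lists were chosen with earlier results of these data known. Text names all 9 members, Cyfip2, up to 4 genes of each associated list whose groups do not overlap in order of p, and the 2 genes most correlated with each member; others named were chosen after their values were seen. Positions and coding windows came from GENCODE M21 (GRCm38, the assembly of mm10) and promoters from RefSeq. Alternatives were other pseudocounts, filters, scalings, variance models, weights, a replicate block and each library left out.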

Additional observations from a re-analysis of the deposited data

How the results depend on the processing

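Each subunit gene kept the sign of its fold change in all of its alternative fits, and none was called in any of the 17 by limma. The filters, the replicate block and the variance models leave the fold change of any gene, Cyfip2 included, as it was. Only the pseudocounts, scalings, weights and left-out libraries could alter a sign. The smallest limma adjusted p was 0.3145, for Gria4 with sample weights. Grik3 and Grik4 have no value at a minimum mean of 5 FPKM, which leaves 7 subunits. The median log2 fold change of the subunits (0.1298) was 0.1367 and 0.1374 with pseudocounts of 0.1 and 0.01, 0.1486 with sample weights and 0.1058 to 0.1581 with 1 library left out. The count of subunits whose CKO values all lay above WT, an alternative chosen after seeing the data, was 6 after quantile normalization (7.69% of all tested genes). It was 5 to 7 with 1 library left out, where 11% to 12.8% of all tested genes did so. Leaving out a library can only keep or raise this count and this share. A count below 5 was therefore not possible there. Over all genes, the 2 higher calls were 1 with the replicate block, 1 without the variance trend, 3 with no filter, quantile normalization, robust eBayes or sample weights, and 1 to 3 with a library left out (1 without WT 1 or WT 2). The 1 lower call was 0 under 3 settings (no filter, robust eBayes, no variance trend) and 0 to 1 with a library left out (0 without CKO 2, CKO 3 or WT 2). The cause was not tested. With all libraries the lower call is Cyfip2, whose limma adjusted p was 0.07396 with no filter, 0.1109 with robust eBayes, 0.1024 without the variance trend and 0.001597 to 0.1973 with a library left out, and whose fold change was below 0 in all 17 alternatives. Without CKO 1 or WT 3 the 1 lower call was a gene other than Cyfip2, whose limma adjusted p was then 0.1093 and 0.0663. By the labels same-numbered libraries share only a number, and of the subunits the block called none (lowest limma adjusted p = 0.4238, Gria4). Absolute depth is unknown, so counting error could not be separated from the spread between libraries.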
